A study of Mus musculus with 8 samples.

Results

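The genes described here are 10 members of the cyclic AMP and protein kinase A (PKA) machinery that restrains Hedgehog signalling, of 55416 gene identifiers counted in the study. They were taken by name, as a list of pathway members: the PKA catalytic subunit genes Prkaca and Prkacb, the regulatory subunit genes Prkar1a, Prkar1b, Prkar2a and Prkar2b, the receptor gene Gpr161, the G protein gene Gnas and the anchoring protein genes Akap12 and Akap9. All 10 were found in the count table and all 10 passed the filter on low counts. Messenger RNA was sequenced from MB21, a mouse medulloblastoma cell line labelled as a ptch mutant, grown unattached. In one group (DS38, 4 libraries) the cells had been exposed for 5 days to 10 uM DS-1-38, a derivative of benzarone. In the other (DMSO, 4 libraries) they had been exposed for 5 days to the DMSO vehicle. Both groups carry the ptch mutation, both come from a single cell line, and the labels do not say whether libraries came from separate cultures, so p-values measure the spread between these libraries, which may be technical.

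PKA is a tetramer in which a pair of regulatory subunits holds a pair of catalytic subunits inactive until cyclic AMP binds. In Hedgehog signalling it is a brake: Gpr161, a receptor in the primary cilium, signals through the stimulatory G alpha protein encoded by Gnas to raise cyclic AMP, and PKA then phosphorylates Gli proteins so that they are held back or cut into repressors. A-kinase anchoring proteins tether PKA beside its substrates and beside the enzymes that make or destroy cyclic AMP. In mice, loss of Gnas, of Gpr161 or of PKA activity in neural progenitors releases the pathway. Loss of Gnas, for example, leads to medulloblastoma of the Hedgehog type.

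Library totals ran from 17142397 to 28476019 counts in DS38 and from 18878556 to 25582159 counts in DMSO. CPM stands for counts scaled by library size. Pearson's correlation of log2 CPM across tested genes was 0.994 to 0.997 within groups and 0.986 to 0.992 between them. The libraries numbered 1 in each group deviated from their group means together (correlation 0.357 across genes), so counts are also given without both. The granule neuron progenitor markers, which define the cell of origin of this tumour, were all 8 counted and summed to between 1830 and 1882 CPM in DS38 and between 1601 and 1683 CPM in DMSO. A change here means that edgeR's quasi-likelihood p, adjusted by the Benjamini-Hochberg method over the 15133 genes tested, fell under 0.05. By that measure 39.5% of genes changed, 18.8% upward and 20.7% downward. The upward ones made up 47.5% of the calls, a figure that was 64.3% with scaling by library totals. By the same measure 5 of the 8 granule neuron progenitor markers rose, Zic1 and Nhlh2 fell, and 1 did not pass. The higher sum in DS38 therefore does not stand for all 8.

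With DS-1-38 the anchoring protein gene Akap12 rose 2.38-fold, the type II regulatory subunit genes Prkar2a and Prkar2b fell 1.30-fold and 1.22-fold, and the catalytic subunit gene Prkaca fell 1.10-fold. The other 6 genes, Prkacb, Prkar1a, Prkar1b, Gpr161, Gnas and Akap9, did not pass the test. Of the 10 genes, 1 rose, 3 fell and 6 did not pass, a share changed that is close to the 39.5% of all tested genes. With 10 genes, chosen with earlier results known, this count cannot show whether the group was singled out. Their median log2 fold change was -0.09, against -0.01 over all tested genes. Libraries of the groups did not overlap for Akap12, which was above in DS38, and for Prkaca, Prkar2a, Prkar2b and Gpr161, which were below. Over all tested genes 36.1% had groups that did not overlap. The number of members called was 7 once the trend of expression on gene length was removed from each library, which added Prkacb, Prkar1a and Gpr161 to the falls, and 5 without both libraries numbered 1.

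**Figure D1:**
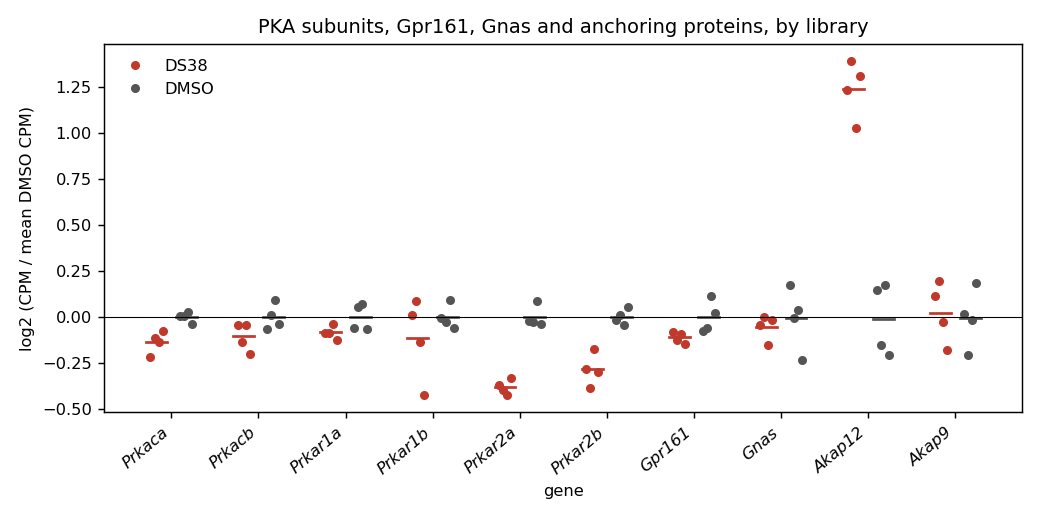
CPM of each gene in each library, as log2 of the ratio to the mean of the 4 DMSO libraries. Points are libraries and bars are group means of 4 libraries. The Akap12 points in DS38 lie above those in DMSO, the Prkar2a and Prkar2b points lie below, and the Akap9 and Gnas points overlap.

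Levels can be compared between genes only per unit of length, for which counts were divided by gene length and scaled to a fixed sum per library (TPM). Prkar1a, the main type I regulatory subunit gene, was the most abundant of the 10, at 385 ± 15.6 TPM in DS38 and 378 ± 18.8 TPM in DMSO (SD, n = 4 each). Prkaca followed at 180 ± 4.07 TPM in DS38 and 184 ± 3.66 TPM in DMSO (SD, n = 4 each). The next in order were Prkar2a (98.9 TPM in DS38 and 119 TPM in DMSO), Prkacb (63.4 TPM in DS38 and 63.2 TPM in DMSO), Prkar2b (46.1 TPM in DS38 and 52.0 TPM in DMSO) and Gpr161 (27.2 TPM in each group). Akap9 stood at 20.7 TPM in DS38 and 18.8 TPM in DMSO, Gnas at 6.11 TPM in DS38 and 5.88 TPM in DMSO, Akap12 at 4.99 TPM in DS38 and 1.95 TPM in DMSO, and Prkar1b at 1.22 TPM in both. The order was the same in both groups. The place of Gnas is uncertain, since reads in stretches it shares with other genes may have gone uncounted and its level may be too low. Neighbours in the order did not overlap between libraries of a group, except Gnas and Akap12 in DS38. TPM values of tested genes were in the median 0.10 higher in DS38 on the log2 scale, so changes between groups are taken from the fit and not from TPM.

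**Figure D2:**
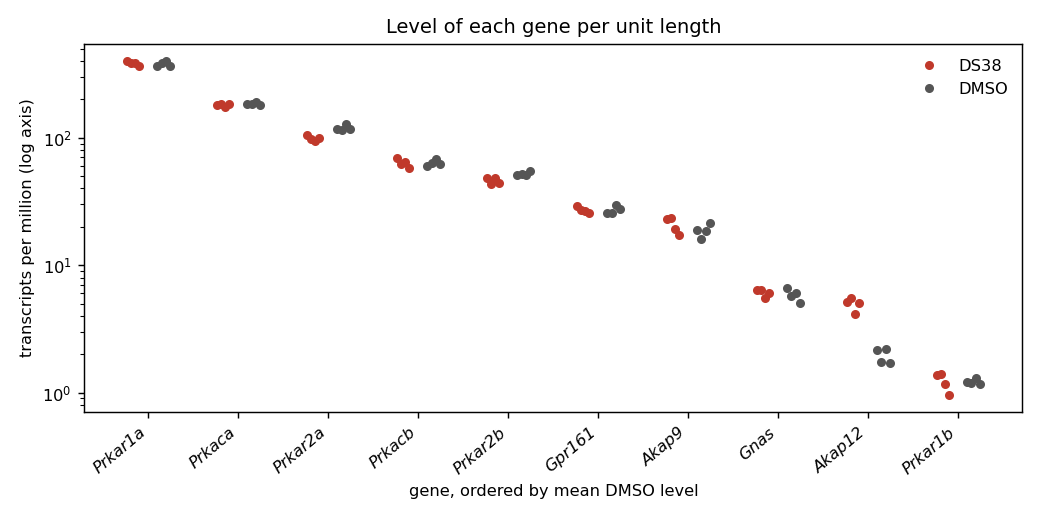
Level of each of the 10 genes in TPM on a log axis, with genes ordered by their mean in DMSO. Each point is a library, DS38 left of DMSO. The order from Prkar1a to Prkar1b is the same in both groups, and Akap12 comes within reach of Gnas only in DS38.

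Prkaca encodes the catalytic subunit C alpha. It had 113, 121, 119 and 124 CPM in the DS38 libraries and 131, 132, 134 and 128 CPM in the DMSO libraries. Every DS38 library was below every DMSO library, by a small margin. The log2 fold change was -0.14 ± 0.040 SE (edgeR adjusted p = 0.0117), a call lost without DS38 replicate 1 (adjusted p = 0.0523), without both libraries numbered 1 (adjusted p = 0.0761) and with scaling by library totals (adjusted p = 0.136). Prkacb, which encodes C beta, had 154, 144, 154 and 138 CPM in DS38 and 152, 160, 169 and 155 CPM in DMSO. The groups overlapped, and the log2 difference of -0.10 ± 0.046 SE did not pass (edgeR adjusted p = 0.0797). It did pass without DMSO replicate 1 (adjusted p = 0.0494), without both libraries numbered 1 (adjusted p = 0.0287) and with the length trend removed (adjusted p = 0.00211).

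Prkar2a, which encodes the type II regulatory subunit RII alpha, had 169, 166, 163 and 174 CPM in DS38 and 215, 214, 231 and 213 CPM in DMSO. The highest DS38 library lay well below the lowest DMSO library. The log2 fold change was -0.38 ± 0.040 SE (edgeR adjusted p = 7.31e-07). Prkar2b encodes RII beta, the form prominent in neurons and fat. It had 44.7, 41.7, 48.3 and 44.3 CPM in DS38 and 53.8, 54.8, 52.7 and 56.6 CPM in DMSO, again without overlap, with a log2 fold change of -0.29 ± 0.049 SE (edgeR adjusted p = 0.000164). Both type II genes passed under each of the 18 alternatives run.

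The type I genes did not pass. Prkar1a, which encodes RI alpha, had 441, 442, 457 and 429 CPM in DS38 and 450, 486, 492 and 447 CPM in DMSO, and the groups overlapped (log2 difference -0.08 ± 0.042 SE, edgeR adjusted p = 0.120). With the length trend removed it was called lower (log2 fold change -0.11, adjusted p = 0.0418). Prkar1b, the RI beta gene, was close to silence, with 1.34, 1.41, 1.21 and 0.989 CPM in DS38 and 1.32, 1.30, 1.41 and 1.28 CPM in DMSO (log2 difference -0.08 ± 0.21 SE, edgeR adjusted p = 0.778). Part of its exons, 8.95% in an older annotation, is shared with Gm15672 on the same strand, so its counts are uncertain.

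Type I genes made up 72.6%, 73.3%, 73.2% and 71.7% of the summed TPM of the 4 regulatory subunit genes in DS38 libraries, against 68.3%, 69.9%, 69.2% and 68.0% in DMSO libraries. Each DS38 library was above each DMSO library, with means of 72.7 ± 0.76% in DS38 and 68.9 ± 0.868% in DMSO (SD, n = 4 each). The summed TPM of the type I genes was 365 to 403 in DS38 and 363 to 401 in DMSO, which overlap, whereas that of the type II genes was 141 to 152 in DS38 and 168 to 178 in DMSO. TPM of tested genes was in the median 0.10 higher in DS38 on the log2 scale. The overlap of the type I sums therefore does not show an unchanged level. The share is built from genes that were tested singly above, so it carries no test of its own. Prkaca made up 74.0 ± 1.74% of the summed catalytic TPM in DS38 and 74.4 ± 0.714% in DMSO (SD, n = 4 each), with overlap. Without division by length, its share was 44.7 ± 2.24% in DS38 and 45.3 ± 0.932% in DMSO (SD, n = 4 each). The larger share of Prkaca therefore rests on the deposited gene lengths. The ratio of catalytic to regulatory TPM was 0.460 ± 0.0123 in DS38 and 0.449 ± 0.00801 in DMSO (SD, n = 4 each), also overlapping. Without division by length that ratio was 0.408 ± 0.0015 in DS38 and 0.391 ± 0.0035 in DMSO (SD, n = 4 each), with each DS38 library above each DMSO library.

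**Figure D3:**
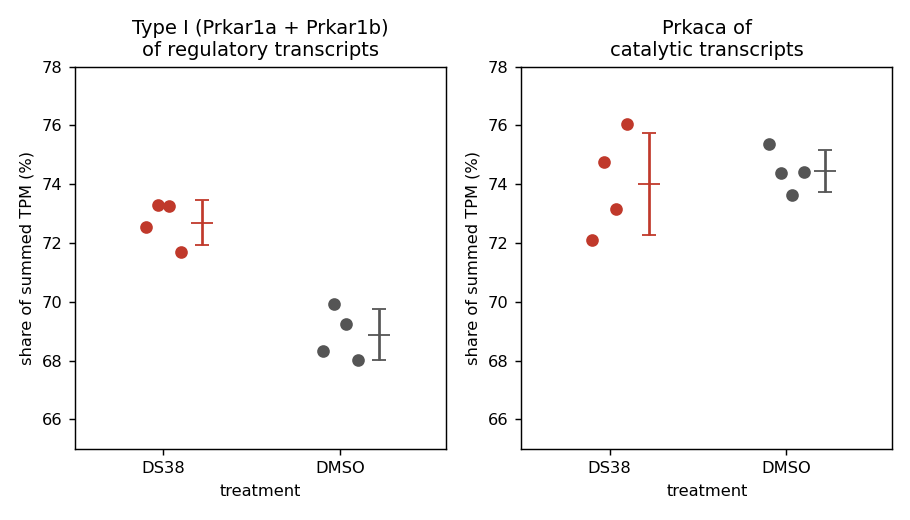
Left, the share of Prkar1a plus Prkar1b in the summed TPM of the regulatory subunit genes; right, the share of Prkaca in that of the catalytic subunit genes. Points are libraries, the bar beside them is the mean ± SD of 4, and the axis runs over part of the range and does not start at 0. The regulatory share is higher in each DS38 library, and the catalytic share overlaps.

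RefSeq promoter windows, 250 bases before to 50 after a start site in GRCm38.p6, were found for 9 of the 10 genes (26 windows, since several genes have more than 1 start), and Akap12 had no entry. They were searched on both strands for the cyclic AMP response element (CRE) TGACGTCA, for its core TGACG, which the full element contains, and for the Gli motif GACCACCCA. The full CRE was found in 2 windows, both of Prkar1a, which overlap and hold the same match, against 1.79% of all 32851 windows. The core was found in 10 of the 26 windows, from 6 genes, against 20.8% of all windows. Overlapping windows of Prkar1a and of Gnas hold the same core matches, so these windows are not separate finds. The Gli motif was found in 0 windows, against 0.253%. The stretches of the 3 PKA genes that fell are shown from 250 bases before to 10 after their most upstream start, read along the gene, with each CRE core in capitals. The Prkar2b stretch has none. Beside them stand 30 bases around the full CRE of Prkar1a, which did not pass the test. They lie at chr8:83972728-83972987 on the plus strand (Prkaca), chr9:108691893-108692152 on the plus strand (Prkar2a), chr12:32061268-32061527 on the minus strand (Prkar2b) and chr11:109650889-109650918 on the plus strand (Prkar1a).
Prkaca: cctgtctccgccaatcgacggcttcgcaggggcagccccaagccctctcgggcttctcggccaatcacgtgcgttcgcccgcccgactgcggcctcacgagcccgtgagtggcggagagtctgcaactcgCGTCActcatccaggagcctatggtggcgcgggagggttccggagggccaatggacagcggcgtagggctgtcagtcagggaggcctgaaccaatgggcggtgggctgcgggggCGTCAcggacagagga
Prkar2a: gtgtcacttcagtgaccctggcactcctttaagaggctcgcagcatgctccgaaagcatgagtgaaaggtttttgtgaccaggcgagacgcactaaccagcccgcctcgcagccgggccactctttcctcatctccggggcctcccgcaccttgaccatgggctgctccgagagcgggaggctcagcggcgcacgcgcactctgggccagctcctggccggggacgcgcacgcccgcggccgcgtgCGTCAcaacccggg
Prkar2b: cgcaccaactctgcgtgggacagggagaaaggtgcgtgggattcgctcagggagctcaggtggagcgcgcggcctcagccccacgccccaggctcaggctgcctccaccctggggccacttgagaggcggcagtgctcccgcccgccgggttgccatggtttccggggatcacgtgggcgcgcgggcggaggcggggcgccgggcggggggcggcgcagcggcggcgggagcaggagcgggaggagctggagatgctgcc
Prkar1a: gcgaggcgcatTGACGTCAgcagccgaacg

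A match in these letters is a description of the reference sequence, which says nothing of a factor bound there in MB21 cells. The core occurred both in promoters of genes that fell (Prkaca and Prkar2a) and in those of genes that did not pass (Prkacb, Prkar1a, Prkar1b and Gnas).

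Gpr161 had 51.3, 49.8, 50.9 and 49.1 CPM in DS38 and 51.4, 52.1, 58.7 and 55.0 CPM in DMSO. The groups did not overlap, but the highest DS38 library all but touched the lowest DMSO library, and the log2 difference of -0.11 ± 0.048 SE did not pass (edgeR adjusted p = 0.0825). It passed without DMSO replicate 1 (adjusted p = 0.0435), without both libraries numbered 1 (adjusted p = 0.0489) and with the length trend removed (adjusted p = 0.00744). Gnas had 18.6, 19.2, 17.2 and 18.9 CPM in DS38 and 21.7, 19.1, 19.7 and 16.3 CPM in DMSO, with the DMSO libraries on both sides of the DS38 ones (log2 difference -0.05 ± 0.078 SE, edgeR adjusted p = 0.620). Gnas is an imprinted gene with several start sites, and 8.83% of its exon bases lie opposite the antisense RNA gene Nespas and 13.1% opposite Gm20721. The strand setting of the counting is not given in the sources used here, so reads of these genes may not have been told apart, or may have been left uncounted. Nespas itself was at 2.45 ± 0.344 CPM in DS38 and 1.26 ± 0.235 CPM in DMSO (SD, n = 4 each; log2 fold change 0.97, edgeR adjusted p = 0.000672).

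Akap12 encodes a scaffold, also known as gravin or SSeCKS, that binds PKA together with protein kinase C and the phosphatase calcineurin. It had 211, 287, 133 and 179 reads in the DS38 libraries and 104, 78, 78 and 64 reads in the DMSO libraries. Scaled, that is 8.83, 9.88, 7.66 and 9.31 CPM in DS38 and 4.17, 3.39, 4.24 and 3.27 CPM in DMSO. The lowest DS38 library lay well above the highest DMSO library. The means were 8.92 ± 0.94 CPM in DS38 and 3.77 ± 0.51 CPM in DMSO (SD, n = 4 each), with a log2 fold change of 1.25 ± 0.12 SE (edgeR adjusted p = 2.64e-07) that stayed between 1.19 and 1.32 under the 18 alternatives, all past the threshold.

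Akap12 is known from meningeal, fibroblast and vascular cells as well as from neural ones, so markers of such cells are given beside it. The 10 meningeal and fibroblast markers summed to 56.5 to 61.2 CPM in DS38 and 79.4 to 82.6 CPM in DMSO, most of it Pdgfra, which immature glia also express. Of the 5 tested, Col1a1 rose, at 0.798 CPM in DS38 and 0.233 CPM in DMSO, Pdgfra and Foxc1 fell, and 2 did not pass, while Col1a2 had 3 reads and Dcn 8 reads in all 8 libraries. The 8 endothelial markers summed to 2.55 to 3.11 CPM in DS38 and 1.20 to 2.94 CPM in DMSO, with Cldn5 at 0. Of the 2 tested, Tek, an angiopoietin receptor gene, rose 2.54-fold, at 0.747 CPM in DS38 and 0.318 CPM in DMSO with overlapping libraries (edgeR adjusted p = 0.0295), and Cdh5 did not pass. The 8 pericyte and smooth muscle markers summed to 2.81 to 3.81 CPM in DS38 and 3.10 to 5.36 CPM in DMSO, with Rgs5 at 0, and of the 2 tested Kcnj8 fell and Abcc9 did not pass. Astrocyte markers summed to 349 to 374 CPM in DS38 and 344 to 385 CPM in DMSO, mostly Slc1a2 and Slc1a3. Of the 5 tested, Gfap rose 1.68-fold, at 3.07 CPM in DS38 and 1.83 CPM in DMSO (edgeR adjusted p = 0.00421), Slc1a3 fell and 3 did not pass. Oligodendrocyte lineage markers summed to 63.6 to 68.5 CPM in DS38 and 86.2 to 92.4 CPM in DMSO, again mostly Pdgfra. Of the 6 tested, 0 rose, Pdgfra fell and 5 did not pass, so the lower sum in DS38 does not stand for the list. Microglial markers summed to at most 0.173 CPM in DS38 and 0.109 CPM in DMSO, with Cx3cr1, C1qa and C1qb at 0. The part of such cells in the rise of Akap12 was not tested, and in bulk RNA fewer cells of a type and less RNA per cell cannot be told apart.

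Over the 8 libraries the genes whose profile lay nearest to that of Akap12, by the root-mean-square difference of centred log2 (CPM + 0.5) among 10226 others averaging 4 CPM or more, were Tent5c (0.109), Hey1 (0.119) and Mfap4 (0.127). Tent5c had 6.36, 6.30, 5.36 and 6.87 CPM in DS38 and 2.73, 2.22, 3.32 and 2.65 CPM in DMSO. Hey1, a Notch-responsive repressor gene, had 105, 95.1, 95.9 and 102 CPM in DS38 and 49.6, 40.1, 43.6 and 41.2 CPM in DMSO. Mfap4, a microfibril-associated protein gene, had 156, 144, 155 and 169 CPM in DS38 and 79.3, 66.0, 72.1 and 65.7 CPM in DMSO. All 3 were chosen for this likeness, which the difference between the groups sets for the most part, and so carry no test here.

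**Figure D4:**
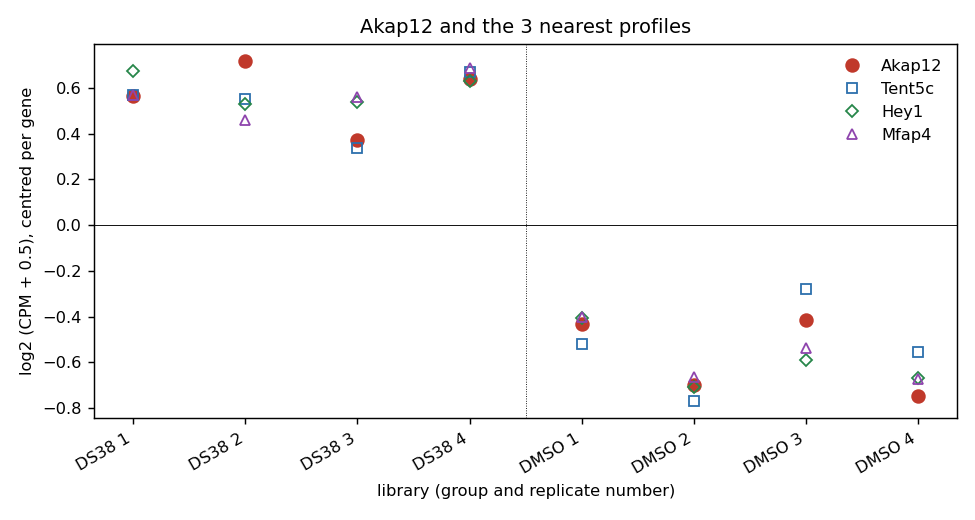
Log2 (CPM + 0.5), centred on each gene's mean, of Akap12 and of the 3 genes with the nearest profiles, in the 8 libraries. Each point is 1 gene in 1 library. All 4 genes lie above 0 in the DS38 libraries and below 0 in the DMSO libraries.

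Akap9, which encodes the large scaffold that holds PKA at the centrosome and the Golgi, did not pass the test. It had 128, 136, 117 and 105 CPM in DS38 and 120, 103, 118 and 135 CPM in DMSO. The ranges were nearly the same, and the log2 difference was 0.03 ± 0.10 SE (edgeR adjusted p = 0.820). Its SE was larger than that of Prkaca, at a similar CPM. A short stretch, 0.778% of its exon bases, lies opposite exons of Cyp51, a sterol synthesis gene that itself fell (log2 fold change -0.33, edgeR adjusted p = 9.93e-05).

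Among 13 other A-kinase anchoring protein genes tested, of 17 listed, 5 rose, 1 fell and 7 did not pass (median log2 fold change 0.05). This and the list counts below stand beside 18.8% up and 20.7% down over all tested genes. No list was tested as a set. The risers with the smallest p were Akap5, the postsynaptic anchor (log2 fold change 0.55, edgeR adjusted p = 0.000228), the nuclear Akap8l (0.30, adjusted p = 0.000581) and Sphkap, an anchor specific for type I PKA (0.94, adjusted p = 0.00159), and the faller was Akap3 (-1.41, adjusted p = 0.00471), known from sperm and present here at 0.317 CPM in DS38 and 0.886 CPM in DMSO. Akap1, the mitochondrial anchor and the most abundant per length, was at 98.0 ± 2.52 CPM in DS38 and 103 ± 4.64 CPM in DMSO and did not pass. Of the 3 PKA inhibitor peptide genes, whose products block free catalytic subunits, Pkia rose (log2 fold change 0.40 ± 0.065 SE, edgeR adjusted p = 9.38e-05). It had 32.5, 28.4, 32.9 and 32.5 CPM in DS38 and 22.3, 23.5, 23.4 and 26.3 CPM in DMSO, without overlap. Pkig (21.3 CPM in DS38 and 19.6 CPM in DMSO) and Pkib (0.964 CPM in DS38 and 0.896 CPM in DMSO) did not pass.

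Genes that make and destroy cyclic AMP moved in both directions. Of 7 adenylyl cyclase genes tested, 3 rose, 1 fell and 3 did not pass (median log2 fold change 0.06). Adcy8, a calcium-stimulated cyclase gene, had 3.60, 4.13, 4.61 and 3.80 CPM in DS38 and 1.56, 1.56, 1.69 and 1.48 CPM in DMSO (log2 fold change 1.35 ± 0.16 SE, edgeR adjusted p = 2.31e-06). Adcy5 (log2 fold change 0.48, adjusted p = 0.000667) and Adcy7 (0.47, adjusted p = 0.0190, but 0.0728 without DMSO replicate 2 and 0.0530 without both libraries numbered 1) rose too. Adcy1, the most abundant of them per length in DMSO but close to Adcy6 in DS38 (22.8 TPM for Adcy1 and 23.1 TPM for Adcy6), fell (-0.20, adjusted p = 0.00756), a call lost with scaling by library totals (adjusted p = 0.0576). Of 11 phosphodiesterase genes tested, 3 rose, 4 fell and 4 did not pass (median 0.03). Per length, Pde1c was the most abundant of them in DS38 (74.9 TPM, with Pde3b at 57.0 TPM) and Pde3b in DMSO (59.4 TPM, with Pde1c at 50.9 TPM). Pde1c had 420, 417, 426 and 371 CPM in DS38 and 304, 273, 302 and 318 CPM in DMSO (log2 fold change 0.45 ± 0.051 SE, edgeR adjusted p = 2.37e-06), and Pde3a rose by 0.34 on the log2 scale (adjusted p = 1.39e-05). Pde4b (log2 fold change -0.90, adjusted p = 0.000118) and Pde10a (-0.49, adjusted p = 0.000216) fell.

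Upstream of the cyclases, the receptor gene Adcyap1r1 rose. It encodes the receptor for PACAP, a peptide that raises cyclic AMP and restrains the division of granule neuron progenitors. It had 245, 240, 239 and 236 CPM in DS38 and 161, 156, 165 and 161 CPM in DMSO, far apart (log2 fold change 0.58 ± 0.037 SE, adjusted p = 9.09e-10 in edgeR). The gene of its ligand, Adcyap1, had 17 reads in all 8 libraries and was not tested. Vipr1, a related receptor gene, rose by 0.57 on the log2 scale (adjusted p = 5.01e-05), and Gpr3, at under 1 CPM, did not pass. Only 3 of the 15 genes on this list were tested, so its count (2 rose, 0 fell) says little of the list. Of 6 other G alpha genes, 2 rose, 2 fell and 2 did not pass (median 0.12). The inhibitory Gnai3 rose (log2 fold change 0.19, adjusted p = 0.000968), Gnao1 (-0.25, adjusted p = 0.000177) and Gnai1 (-0.24, adjusted p = 0.00249) fell, and Gnaz rose by 0.23 on the log2 scale (adjusted p = 0.0262), which did not hold without DS38 replicate 1 (adjusted p = 0.0978), DS38 replicate 2 (0.0854), DMSO replicate 1 (0.0722) or both libraries numbered 1 (0.199), nor by DESeq2's Wald test (0.0615).

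Of 6 genes that move Gpr161 into and out of the cilium, 1 rose, 0 fell and 5 did not pass (median log2 fold change 0.08). The riser was Tulp3, which carries Gpr161 into the cilium, at 139 ± 4.23 CPM in DS38 and 129 ± 3.18 CPM in DMSO (SD, n = 4 each; log2 fold change 0.10, edgeR adjusted p = 0.0409). Of the 8 fits that leave out a library, that call held in those without DS38 replicate 4 and without DMSO replicate 1. The adjusted p was 0.118, 0.0675 and 0.0716 without DS38 replicates 1, 2 and 3, and 0.0932, 0.102 and 0.0697 without DMSO replicates 2, 3 and 4. It was also lost with the length trend removed (adjusted p = 0.592), without both libraries numbered 1 (0.0958), with the replicate number as a block (0.0778), with no filter on low counts (0.158) and by DESeq2's Wald test (0.0581). The receptor kinase genes Grk2 and Grk3 and the arrestin gene Arrb2, which serve its exit, did not pass (log2 differences 0.05, 0.10 and -0.05).

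Among readers of PKA activity, 12 cyclic AMP and CREB target genes were tested, of which 5 rose, 2 fell and 5 did not pass (median log2 fold change 0.16). Per1 (log2 fold change 0.32, edgeR adjusted p = 0.00138), Nr4a3 (0.60, adjusted p = 0.00478) and Fos (0.40, adjusted p = 0.00508) rose, all of which answer to other signals as well, and Pde4b fell as given above. Of 8 genes of the CREB family and its coactivators, 4 rose, 2 fell and 2 did not pass (median 0.13). Over all tested genes 18.8% rose and 20.7% fell, and lists this short were not tested as sets. The coactivator genes Crtc1 (0.31, adjusted p = 4.41e-05), Crebbp (0.27, adjusted p = 0.000294) and Ep300 (0.21, adjusted p = 0.0124, but 0.0840 without both libraries numbered 1) rose, as did Atf1 (0.13, adjusted p = 0.0201, but 0.0763 without DS38 replicate 2, 0.0742 without DMSO replicate 4 and 0.0789 with no filter on low counts). Creb1 fell (-0.16, adjusted p = 0.00702), a call lost with scaling by library totals (adjusted p = 0.0778).

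Downstream of PKA, of 10 genes of Gli phosphorylation and processing tested, 4 rose, 3 fell and 3 did not pass (median log2 fold change -0.02). Of the Gli genes on this list, Gli2 rose by 0.13 on the log2 scale with overlapping libraries (edgeR adjusted p = 0.0266). Gli3 had 2 reads in all 8 libraries and was not tested. Csnk1d, a kinase gene (log2 fold change 0.18, adjusted p = 0.000956 in edgeR), and the ubiquitin ligase adaptor gene Btrc (0.24, adjusted p = 0.00152, lost with the length trend removed, adjusted p = 0.109) rose, and the inhibitor gene Sufu (-0.19, adjusted p = 0.00235) and the kinase gene Gsk3a (-0.20, adjusted p = 0.00251) fell. The pathway's readout genes Gli1, Ptch1 and Hhip had log2 fold changes of -0.60, -0.56 and -1.49 in the same fit, each larger in size than that of any PKA subunit gene.

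**Figure D5:**
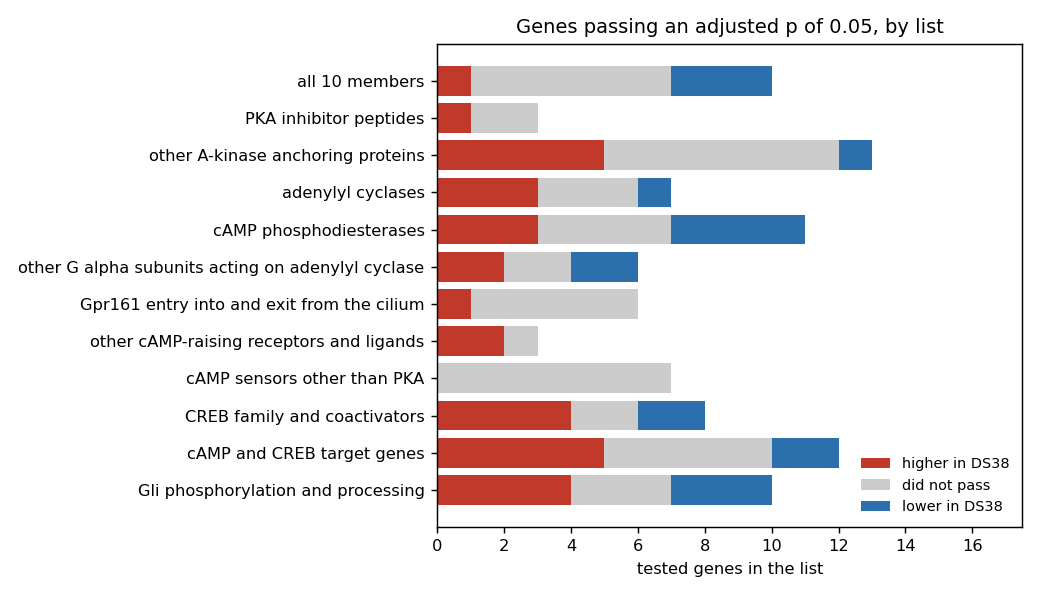
Number of tested genes in each list that were higher in DS38 (left part of each bar), did not pass (middle) or were lower in DS38 (right part) at an adjusted p under 0.05. The 10 members had 1 rise and 3 falls, and most lists hold both rises and falls.

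Partners of Akap12 were also mixed. Out of 9, 2 rose, 4 fell and 3 missed the threshold (median log2 fold change -0.04). The protein kinase C gene Prkcd rose (0.70, edgeR adjusted p = 0.000337), at 5.40, 5.02, 5.30 and 4.79 CPM in DS38 and 3.57, 3.22, 3.15 and 2.60 CPM in DMSO. The calcineurin B gene Ppp3r1 (-0.20, adjusted p = 0.000630), the phosphodiesterase gene Pde4d (-0.52, adjusted p = 0.00177) and the cyclin gene Ccnd1 (-0.38) fell. Over the 99 tested genes of the 13 lists of cyclic AMP and Gli genes together, without the 10 members, 34 rose, 17 fell and 48 did not pass, with a median log2 fold change of 0.07. Over all tested genes 18.8% rose and 20.7% fell, with a median of -0.01.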

How the data were processed

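RNA libraries of 8 MB21 samples were analysed, 4 per group. The values deposited are raw read counts, whole numbers for each gene that the authors had not normalized, beside gene lengths. Per the submitters' processing notes, reads were handled with Subread 2.0.3, featureCounts and STAR 2.7.9a, and edgeR was run in R 4.1.0. The builds named there are GRCh38.p13 and GRCm39. How strand was treated and which annotation was used is not given in the sources used here. Of 55416 identifiers, 52083 were matched to a symbol in GENCODE M21, an annotation of an earlier build used for names and overlaps alone. The most counted identifier kept a shared symbol.

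The test was that of edgeR 4.0.16, run in R 4.3.3 (quasi-likelihood, robust, TMM factors of 0.9753 to 1.032, the filterByExpr minimum of 10 counts), DS38 over DMSO. Benjamini-Hochberg adjustment ran over all 15133 genes, with a threshold of 0.05. Standard errors come from the log2 fold change and F (its size over the root of F). CPM uses the TMM factors. TPM uses the deposited lengths. The common biological coefficient of variation was 5.53%. The test was first tried on simulated counts.

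The alternatives were limma-voom (limma 3.58.1), DESeq2 1.42.0 with its Wald test, its size factors in edgeR, library totals, no filter, a filter of 50 counts in 4 libraries, a replicate block, a fit that is not robust, removal of the gene length trend, leaving out each library and, chosen after seeing the data, leaving out both libraries numbered 1. The named genes are the 10 members, up to 4 genes with the smallest p and the best expressed gene of each list, Gli1, Ptch1, Hhip and Sufu, and the 3 profiles nearest to Akap12. Some others (Adcyap1, Adcy6, Pde3b, Gli2, Gli3, Nespas, Cyp51 and marker genes) were named after their values were seen. The members and lists were chosen with earlier results of these data known. Of 209 list entries 208 were matched, Akap17a being the exception. Same-numbered libraries did not pair: their deviations correlated at 0.357, -0.0809, 0.07 and -0.13 for numbers 1 to 4.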

Additional observations from a re-analysis of the deposited data

Results flagged for a closer look

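Of 142 sets of 4 libraries examined among the named genes and subunit shares, 12 had a library whose distance from the next one took up so much of the set's range that it passed Dixon's 95% critical value. Chance alone picks out about 1 in 20 such sets.

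Among the 10 members only Prkar2a was picked out in this way. DMSO replicate 3 was at 231 CPM, against 213 to 215 CPM in the other DMSO libraries, all of them above each DS38 library.

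The others are given as values. In DS38, Pkia was at 28.4 CPM in replicate 2 (others 32.5 to 32.9), Sphkap at 2.01 CPM in replicate 1 (others 1.61 to 1.62), Akap3 at 0.115 CPM in replicate 3 (others 0.364 to 0.413) and Pde1c at 371 CPM in replicate 4 (others 417 to 426). Atf1 was at 66.3 CPM in DS38 replicate 2 (others 63.1 to 63.6), Gli1 at 85.5 CPM in DS38 replicate 2 (others 92.0 to 93.2) and Ptch1 at 148 CPM in DS38 replicate 4 (others 181 to 185). In DMSO, replicate 2 was high for Akap8l at 32.0 CPM (others 27.8 to 28.5), for Akap3 at 1.39 CPM (others 0.682 to 0.766) and for Rgs2 at 22.9 CPM (others 20.4 to 20.5), and replicate 4 was high for Per1 at 16.0 CPM (others 13.6 to 13.8).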

How the results depend on the processing

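Akap12, Prkar2a and Prkar2b kept their direction and their call under all 18 alternatives, and Prkaca kept its call under 15 of them. The number of members called was 4, against 7 with the gene length trend removed, and 3 to 6 when a library was left out. Genes changed in all numbered 5980, and 4939 to 5912 when a library was left out. Genes changed in the further lists together numbered 51, and 41 to 48 when a library was left out. The type I share differed by 3.82 percentage points, 3.53 to 4.17 when a library was left out, and the Prkaca share by -0.44 percentage points, -1.12 to 0.196 when a library was left out. Sign changes occurred in genes that passed in neither setting. With library totals alone, Gnas stood at 0.00795 and Arrb2 at 0.0111 on the log2 scale. With the length trend removed, Akap9 stood at -0.105 and Pkib at -0.0350. When a library was left out, the log2 difference ran from -0.161 to 0.00852 for Prkar1b, from -0.124 to 0.0130 for Gnas, from -0.0301 to 0.103 for Akap9 and from -0.0940 to 0.255 for Pkib. Gnas was at 0.0124 without both libraries numbered 1. The causes were not tested. With the replicate number as a block, 5594 genes and 4 members changed, and the numbers do not pair the libraries consistently (their correlations stand with the methods). Among the 10 members, low counts limit Prkar1b (227 reads in all libraries) most.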

Other observations

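Of 7 genes for sensors of cyclic AMP other than PKA, 0 passed edgeR's test (median log2 difference 0.04), 2 had an unadjusted p under 0.05, and 1 passed in limma-voom and 0 by DESeq2's Wald test. Bves, a Popeye protein gene, was nearest, at 5.31 ± 0.496 CPM in DS38 and 4.27 ± 0.529 CPM in DMSO (SD, n = 4 each; log2 difference 0.32, edgeR adjusted p = 0.0510), and it passed under 7 of 18 alternatives, such as without DMSO replicate 4 (adjusted p = 0.0236). Hcn2, a hyperpolarization-activated cyclic nucleotide-gated channel gene, had a log2 difference of -0.22 (edgeR adjusted p = 0.0812). Hcn2 passed without DS38 replicate 1 (adjusted p = 0.0184).

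Among 9 partners of Akap9, 2 rose, 2 fell and 5 missed the threshold (median log2 fold change 0.05). The phosphatase gene Ppp1ca (log2 fold change -0.22, edgeR adjusted p = 0.00262) and Pde4d fell, and the microtubule plus-end gene Mapre1 rose (0.14, adjusted p = 0.00717, but 0.135 with the length trend removed). The centrosome gene Cdk5rap2 rose by 0.13 on the log2 scale (adjusted p = 0.0356), a call lost with the length trend removed (0.506) and without DS38 replicate 1 (0.0835), DS38 replicate 2 (0.146), DMSO replicate 1 (0.0770), DMSO replicate 2 (0.135) or both libraries numbered 1 (0.139), with the replicate block (0.0863) and by DESeq2's Wald test (0.0594).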
